A study of Mus musculus with 6 samples.

Results

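The 8 genes Synpo, Actn4, Nes, Clic5, Rhpn1, Myh9, Inf2 and Cdkn1c encode proteins that build or regulate the cytoskeleton of the podocyte, the epithelial cell that covers the glomerular capillary, or mark its mature, non-dividing state. They were taken by gene name from the array design, which places 11 probes on them among 55681 non-control probes: 3 on Synpo, 2 on Myh9 and 1 on each of the others. RNA came from glomeruli, the capillary tufts where the kidney filters blood, which were isolated by bead perfusion from male mice aged 4 months, and was measured on 1-colour Agilent arrays. BXSB/MpJ-Yaa males are the model of glomerulonephritis, and their Y chromosome carries the Yaa locus, a copy of the end of the X chromosome. BXSB/MpJ-Yaa+ males, the controls, have a wild-type Y chromosome, and both share the recombinant inbred background derived from C57BL/6 and SB/Le. The 6 glomerular populations of each strain were pooled 2 by 2, so each group has 3 arrays of 1 pool each, and p-values measure the spread between pools.

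Podocytes are cells that do not normally divide and that hold the filter open with interdigitating foot processes. The foot process is kept in shape by a parallel actin bundle, which is crosslinked by alpha-actinin-4, organised by synaptopodin and tied to the membrane through ezrin and related adaptors, while the cell body and the large processes hold non-muscle myosin and intermediate filaments. Inherited variants of ACTN4, INF2 and MYH9 are known causes of human glomerular disease. A bulk preparation of glomeruli also holds endothelial, mesangial and, in nephritis, inflammatory cells, and in such samples fewer podocytes and less RNA per podocyte cannot be told apart.

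The probes are 60-base oligonucleotides, and 30 bases of each are shown because they fix which piece of the transcript each value below refers to. Probes of Synpo are left out. All are written 5′ to 3′, and capitals mark the letters AATAAA, the usual polyadenylation signal near the 3′ end of a transcript. That motif was found in 4 of these 8 probes and in 10.1% of all 55681 probes, and its reverse complement TTTATT in 1 of the 8, the Actn4 probe, and in 3.74% of all probes. Shown are bases 31 to 60 for Actn4 and Nes, 29 to 58 for the first Myh9 probe, 26 to 55 for Inf2 and 1 to 30 for the others.
Actn4: aaaccaccctctggggatgggagAATAAAa
Inf2: gggattttaaccAATAAAgagcaaccttgt
Rhpn1: ttttcaaccaagaaccgatggcagttggta
Myh9, first probe: actgagcgtcacAATAAAgagtaccatgtc
Myh9, second probe: atccttccctgtggtgtcagtcagtcactt
Clic5: caagccttactcaatgtaccacgcctttga
Nes: ctctcttcctcccttgAATAAAgctgtatc
Cdkn1c: cgtagagcagcccacggttttgtggaaatc

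On mm9, the build given in the file headers, the Actn4 probe lies at chr7:29678289-29678348 on the minus strand, the Inf2 probe at chr12:113853708-113853767 on the plus strand and the Rhpn1 probe at chr15:75543664-75543723 on the plus strand. The first Myh9 probe lies at chr15:77591019-77591078 and the second at chr15:77638189-77638248, both on the minus strand. The Clic5 probe lies at chr17:44416979-44417038 and the Nes probe at chr3:87784303-87784362, both on the plus strand, and the Cdkn1c probe at chr7:150644753-150644812 on the minus strand. The 3 Synpo probes lie on the minus strand of chromosome 18, at 60753644 to 60753691 (transcript variant A, per the array annotation), 60759861 to 60759920 (variant B) and 60812428 to 60812487 (a colon cDNA clone). An annotation of mm9 was not used here, so it is not stated whether a probe lies in a coding exon or an untranslated region.

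The labels of the arrays disagreed in one field. The title, the description and the genotype gave each sample the same strain, and the source name gave the other one. The duplicated X segment gave a check: 9 of its 12 measured genes were higher in the pools titled Yaa and none was lower (limma, adjusted p under 0.05), and the titles were followed. On 5 arrays the signal had a 75th percentile of 261.1 to 292.5, and on Yaa replicate 3 one of 432.0, the array that also lay farthest out on the first principal component. Yaa replicate 1 lay farthest out on the second. Levels below are log2 signals relative to the 75th percentile of their own array, differences are Yaa minus control on the log2 scale with the SE of limma's moderated test, and n is 3 arrays per group throughout.

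No member gene passed the test between the strains, but most were measured lower in Yaa glomeruli, by less than 2-fold. Of the 11 probes 10 were well above background on all 6 arrays and were tested, and 0 passed an adjusted p of 0.05 (limma, Benjamini-Hochberg over 28598 probes), with 5 at an unadjusted p under 0.05, all of them lower in Yaa. Over all 28598 probes 3.30% passed the adjusted threshold (2.54% higher and 0.766% lower) and 17.3% had an unadjusted p under 0.05, 11.5% lower. With the replicate number as a block, 124 probes in place of 219 passed as lower and again 0 members, and 38 to 448 probes passed as lower when single arrays were left out. In 9 of the 10 tested probes the mean was lower in Yaa, as it was in 70.5% of all probes, and in 6 of the 10 every Yaa array lay below every control array, as in 20.4% of all probes. No member was higher on every Yaa array than on every control array, against 6.66% of all probes. The median difference of the 10 probes was -0.39 against -0.15 over all probes. The count of 9 lower means was 8 under quantile normalization and 6 when arrays were scaled to podocyte markers, as described below.

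**Figure D1:**
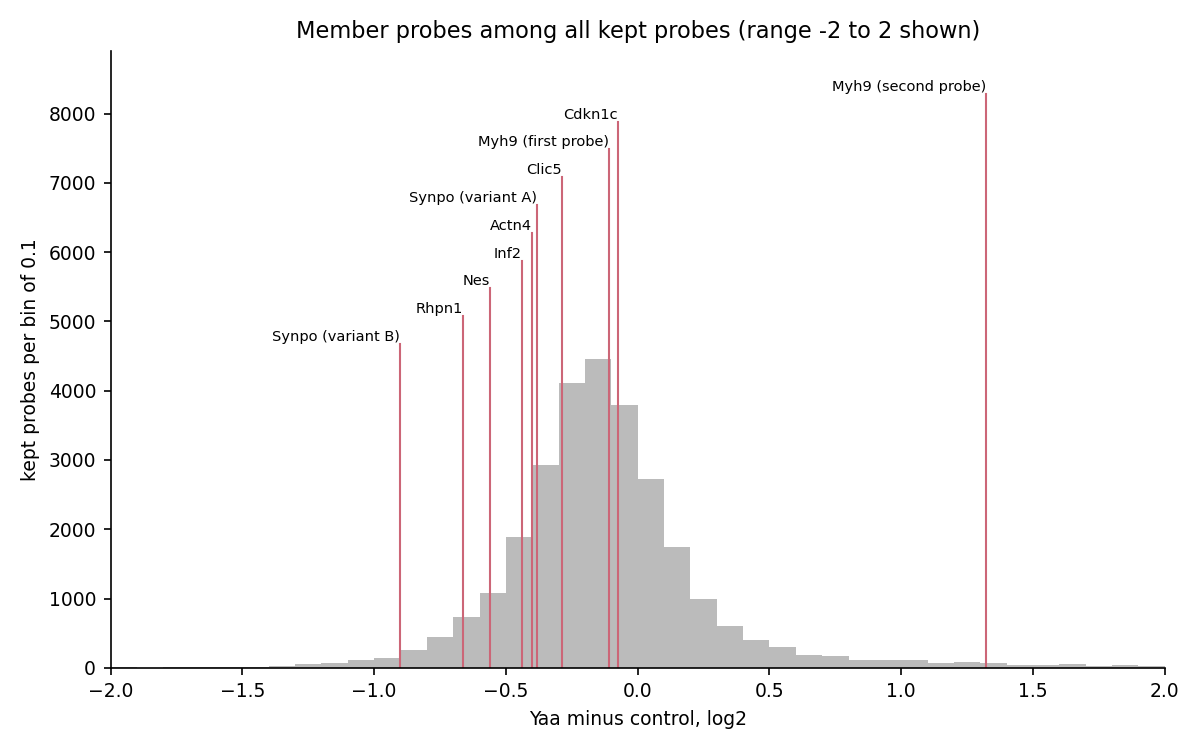
Histogram of the Yaa minus control difference (log2) of all kept probes in bins of 0.1, drawn from -2 to 2, with a vertical line at each of the 10 tested member probes. Apart from the second Myh9 probe at 1.32, the member lines stand between -0.90 and -0.08, most of them left of the median of all probes at -0.15.

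Synaptopodin, encoded by Synpo, is an actin-associated protein of foot processes and a usual marker of differentiated podocytes. Its variant A probe, printed as 10 spots per array, read 4.59, 4.83 and 5.17 in control pools 1 to 3 and 4.27, 4.54 and 4.62 in Yaa pools 1 to 3. The highest Yaa array was above the lowest control array, so the groups overlapped, although in each same-numbered pair of arrays the Yaa one was lower. The difference was -0.38 ± 0.19 (95% interval -0.84 to 0.07, adjusted p = 0.354), with a level of 4.86 ± 0.29 (SD) in controls and 4.48 ± 0.19 in Yaa. With the replicate block it was -0.38 ± 0.13 (adjusted p = 0.211), and without control replicate 3, the highest array, it was -0.23. The spots of this probe differed by an SD of 0.037 to 0.067 within an array, far less than the arrays of a group differed from each other.

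The variant B probe of Synpo read 0.45, 0.33 and 0.64 in the control pools and 0.22, -0.51 and -0.99 in the Yaa pools. The groups did not overlap, and Yaa replicate 1 lay close to the controls while the other Yaa arrays lay further down. The difference was -0.90 ± 0.30, the largest negative one among the members (95% interval -1.61 to -0.19, adjusted p = 0.198), and 1.66% of all probes had a lower one. Without Yaa replicate 1 the difference was -1.23 with an adjusted p of 0.0313, and it was the one member probe that passed in that fit. The log2 ratio of the variant B to the variant A probe was -4.13, -4.50 and -4.53 in the control pools and -4.05, -5.06 and -5.62 in the Yaa pools, which differed by -0.52 on average (exact permutation test, two-sided, p = 0.4, adjusted p = 0.4 over 2 probe pairs, where 3 arrays against 3 cannot go below 0.1). The Synpo probe on the cDNA clone read -6.43 to -5.44, was well above background on 0 of 6 arrays and was not tested.

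Alpha-actinin-4, encoded by Actn4, crosslinks actin filaments in the foot process. It read 7.14, 7.15 and 7.17 in the control pools and 6.78, 6.84 and 6.63 in the Yaa pools. The control arrays lay within an SD of 0.016 of each other, and all Yaa arrays were lower. The difference was -0.40 ± 0.13 (95% interval -0.70 to -0.10, adjusted p = 0.179), or 1.32-fold. Its non-muscle relative Actn1 differed by 0.01 ± 0.13, and Actn2 and Actn3, the muscle forms, were not well above background on any array.

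Inf2 encodes an inverted formin, a protein that both assembles and severs actin filaments. It read 5.62, 5.92 and 5.65 in the control pools and 5.35, 5.43 and 5.10 in the Yaa pools, and the groups did not overlap. The difference was -0.44 ± 0.16 (95% interval -0.81 to -0.07, adjusted p = 0.225). Rhpn1 encodes rhophilin-1, a protein of podocytes that takes part in the control of their actin cytoskeleton. It read 3.46, 2.78 and 3.51 in the control pools and 2.76, 2.35 and 2.64 in the Yaa pools. The groups did not overlap, but control replicate 2 and Yaa replicate 1 differed by far less than the controls did among themselves. The difference was -0.66 ± 0.23 (95% interval -1.21 to -0.12, adjusted p = 0.218). Rhpn2, the other rhophilin gene, differed by -0.54 ± 0.12 (adjusted p = 0.0702, adjusted over 20716 genes).

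Myh9 encodes the heavy chain of non-muscle myosin IIA, the motor that contracts actin bundles in podocytes, other glomerular cells and leukocytes. Its first probe read 7.63, 7.66 and 7.67 in the control pools and 7.64, 7.65 and 7.34 in the Yaa pools. Of the Yaa arrays 2 lay within the range of the controls, and Yaa replicate 3 lay below it. The difference was -0.11 ± 0.14, and its 95% interval of -0.44 to 0.23 leaves out a 2-fold change in either direction. The second Myh9 probe, annotated to another transcript, read -3.37, -3.33 and -3.16 in the control pools, -3.13 and -3.31 on Yaa replicates 1 and 2, and 0.55 on Yaa replicate 3. Its signal was 633.1 on that array and 25.9 to 32.6 on the other 5, with 1 spot per array and no outlier flag. The difference of 1.32 ± 0.96 (adjusted p = 0.494) rests on that array, and without it was 0.06.

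The myosin light chains and regulators listed beside Myh9 counted 0 of 8 past the test in either direction (limma, adjusted p under 0.05 over 20716 genes), with 1 at an unadjusted p under 0.05. Over all genes 4.06% passed, 2.95% higher and 1.11% lower, and 70.3% had a lower mean in Yaa. The median difference of the 8 was -0.27, against -0.14 over all genes. Mylk, the light chain kinase, differed by -0.33 ± 0.14, the regulatory light chains Myl9 and Myl12b by -0.40 ± 0.18 and -0.36 ± 0.16, and the essential light chain Myl6 by -0.26 ± 0.13. The heavy chains Myh10 and Myh14 of the other non-muscle myosins differed by -0.10 ± 0.20 and -0.12 ± 0.29.

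**Figure D2:**
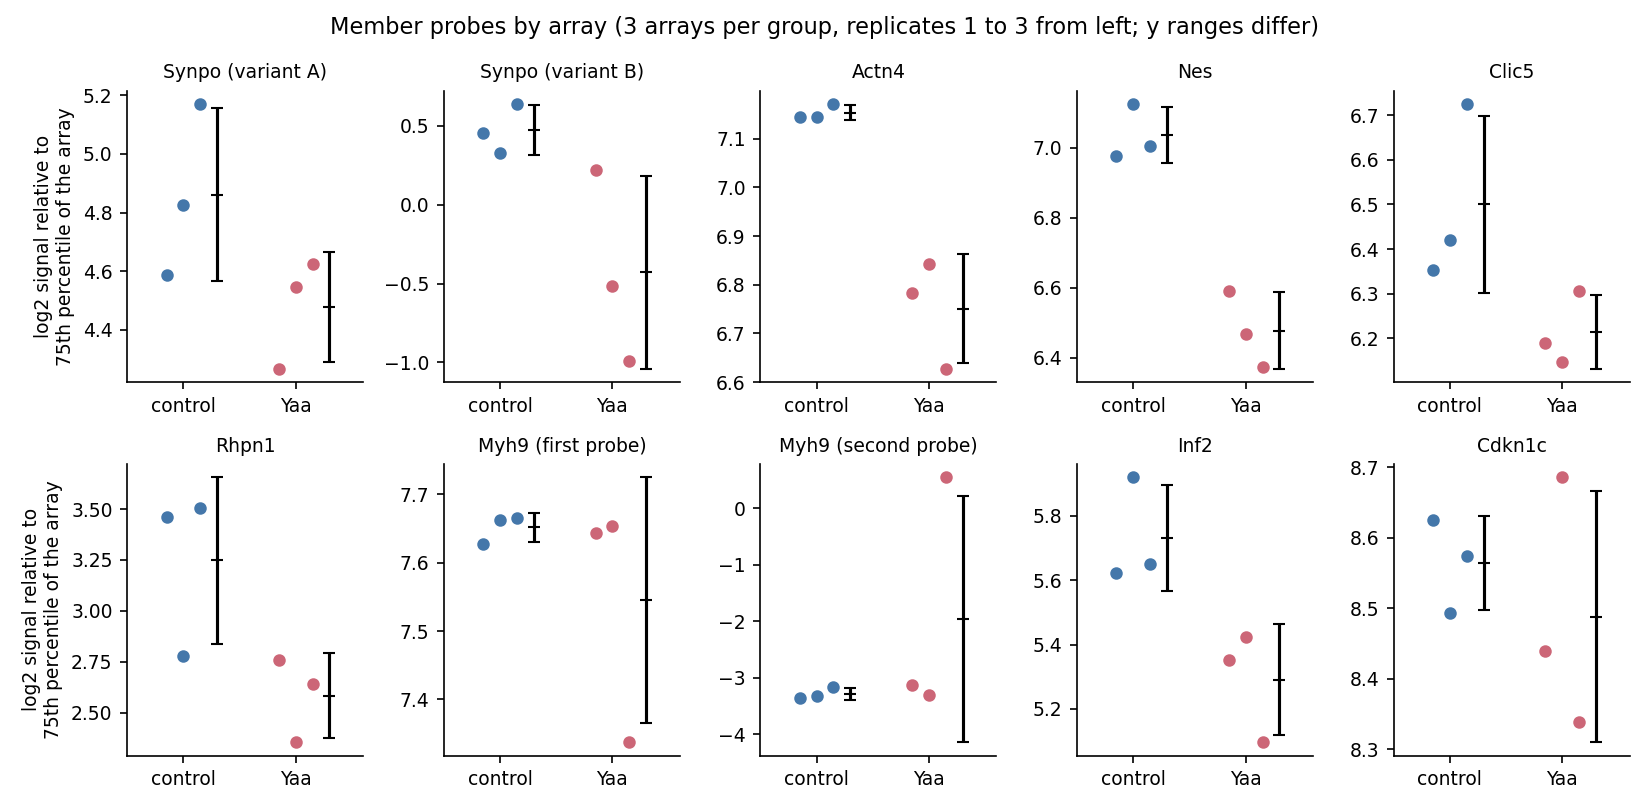
Level of each tested member probe on each array (points, log2 signal relative to the 75th percentile of the array, replicates 1 to 3 from left to right) with the group mean and SD beside them, 3 arrays per group, and a different y range in each panel. Yaa arrays lie below all control arrays for Synpo variant B, Actn4, Nes, Clic5, Rhpn1 and Inf2, and the second Myh9 probe is high on 1 Yaa array.

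Clic5 encodes a protein of the chloride intracellular channel family that binds ezrin at the podocyte membrane. It read 6.35, 6.42 and 6.73 in the control pools and 6.19, 6.15 and 6.31 in the Yaa pools. The groups did not overlap, by a margin smaller than the spread of the controls. The difference was -0.29 ± 0.15 (95% interval -0.64 to 0.07, adjusted p = 0.370), and -0.17 without control replicate 3, the highest array. In its family Clic3 differed by -0.69 ± 0.21 (adjusted p = 0.159) and Clic4 by -0.34 ± 0.12 (adjusted p = 0.214).

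Of 6 partners in the ezrin complex 0 passed limma's test and 2 had an unadjusted p under 0.05. Ezr, which encodes ezrin, the linker between podocalyxin and actin, differed by -0.67 ± 0.16 (adjusted p = 0.0753) and radixin, encoded by Rdx, by -0.53 ± 0.14 (adjusted p = 0.121). The scaffold gene Slc9a3r2 differed by -0.47 ± 0.21 and Slc9a3r1 by -0.29 ± 0.18, while moesin, encoded by Msn, differed by 0.04 ± 0.13. The median of the 6 was -0.38, and every Yaa array was below every control array in 3 of them, and in 20.7% of all genes.

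Nes encodes nestin, an intermediate filament protein that adult podocytes express. It read 6.98, 7.13 and 7.01 in the control pools and 6.59, 6.47 and 6.37 in the Yaa pools. The gap between the groups was larger than the spread within either of them. The difference was -0.56 ± 0.13 (95% interval -0.87 to -0.25), or 1.47-fold, with the smallest adjusted p of the members, 0.0841, which was 0.0282 with an intensity trend and robust variances in the same model and 0.124 with the replicate block. Vim, the gene of vimentin, another intermediate filament protein of podocytes and mesenchymal cells, differed by 0.25 ± 0.15, Des (desmin) by -0.25 ± 0.27 and Synm (synemin) by -0.49 ± 0.20, and none of the 3 passed.

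Cdkn1c encodes p57, a cyclin-dependent kinase inhibitor present in mature podocytes. It read 8.63, 8.49 and 8.57 in the control pools and 8.44, 8.69 and 8.34 in the Yaa pools, so the groups overlapped and Yaa replicate 2 was the highest of all. The difference was -0.08 ± 0.14 (95% interval -0.42 to 0.26, adjusted p = 0.797). It was -0.18 without Yaa replicate 2 and -0.001 without Yaa replicate 3. The related inhibitors Cdkn1a and Cdkn1b differed by 0.25 ± 0.17 and 0.08 ± 0.13. Of 15 measured cell cycle genes on the same arrays 3 rose and none fell: Mki67, a marker of cycling cells, by 2.63 ± 0.49 (adjusted p = 0.0344), Birc5, a mitotic survivin, by 2.83 ± 0.56 and cyclin A2, encoded by Ccna2, by 2.41 ± 0.48. The median of these 15 genes was 1.29, and the mean was lower in Yaa for 2, Cdk1 at -0.52 ± 0.32 and Ccnd1 at -0.09 ± 0.24. The Cdk1 value comes from 1 dim probe, the brightest kept one of the gene, at -2.58 in controls and -3.10 in Yaa. Over all genes 2.95% passed as higher and 1.11% as lower. Which cells of the preparation these transcripts came from was not tested.

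The wider list of 56 actin regulators of podocytes, of which 54 were measured, held 1 gene that rose, none that fell and 53 that did not pass. The gene was Fmnl1, a formin known mainly from leukocytes, at 1.30 ± 0.23 (adjusted p = 0.0305). Anln, the actin-binding protein anillin, differed by 2.03 ± 0.42 (adjusted p = 0.0517), the podocyte calcium channel gene Trpc6 by -0.61 ± 0.14 (adjusted p = 0.0746) and Pls3, a plastin that bundles actin, by -0.42 ± 0.12. The list's median was -0.22. In 15 of the 54 genes, or 27.8%, every Yaa array was below every control array, against 20.7% of all genes, and in 37 the mean was lower, a share no higher than the 70.3% of all genes. Among 15 measured close relatives of the members none passed, 4 had an unadjusted p under 0.05, and the median was 0.01.

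Podocyte markers outside the 8 genes were measured lower as well. Of 20 listed markers 18 were measured, 1 fell, none rose and 17 did not pass, and all 18 had a lower mean in Yaa, with a median of -0.33. The one that fell was Thsd7a, a podocyte membrane protein, at -0.83 ± 0.15 (adjusted p = 0.0314). Over all genes 1.11% passed as lower, 70.3% had a lower mean in Yaa, and the median was -0.14. The transcription factor gene Wt1 differed by -0.35 ± 0.22 and the podocalyxin gene Podxl by -0.21 ± 0.15, both well above background on all 6 arrays. Plce1 differed by -0.60 ± 0.13 (adjusted p = 0.0580) and Foxc2 by -0.66 ± 0.16. Nphs1, the nephrin gene, was well above background on at most 2 arrays and was not tested. The mean level of the 18 markers was 3.80, 3.90 and 4.03 in the control pools and 3.65, 3.55 and 3.44 in the Yaa pools, with no overlap. The mean levels of the ezrin partners, the myosin list and the parietal epithelial markers did not overlap either. Those of the endothelial markers and of the 54 actin regulators were also apart, each by a narrow margin.

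When each array was scaled to the mean of these 18 markers in place of its 75th percentile, the members lay on both sides of the markers. The median difference of the 10 probes was then -0.03, 6 of the 10 were below 0, and none passed (smallest adjusted p = 0.308). This scaling moved the median of all probes from -0.15 to 0.21. Actn4 was then at -0.04 ± 0.15, Synpo variant A at -0.02 ± 0.20, Inf2 at -0.08 ± 0.17 and Clic5, with its sign turned, at 0.07 ± 0.17. Nes was at -0.20 ± 0.15 and its groups still did not overlap, with 3.18, 3.22 and 2.98 in the control pools and 2.94, 2.92 and 2.93 in the Yaa pools. The first Myh9 probe turned to 0.25 ± 0.16, where all Yaa arrays (3.99, 4.11 and 3.90) were above all control arrays (3.83, 3.76 and 3.64), and Cdkn1c to 0.28 ± 0.17 with overlapping groups. The second Myh9 probe was at 1.68 ± 0.94, with -7.16, -7.24 and -7.19 in the control pools and -6.79, -6.86 and -2.89 in the Yaa pools, also without overlap. The first Myh9 probe and Cdkn1c lay near 0.21, the median of all probes under this scaling. The share of all probes whose groups did not overlap under it was not counted. Synpo variant B and Rhpn1 stayed lowest, at -0.54 ± 0.26 and -0.30 ± 0.24.

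**Figure D3:**
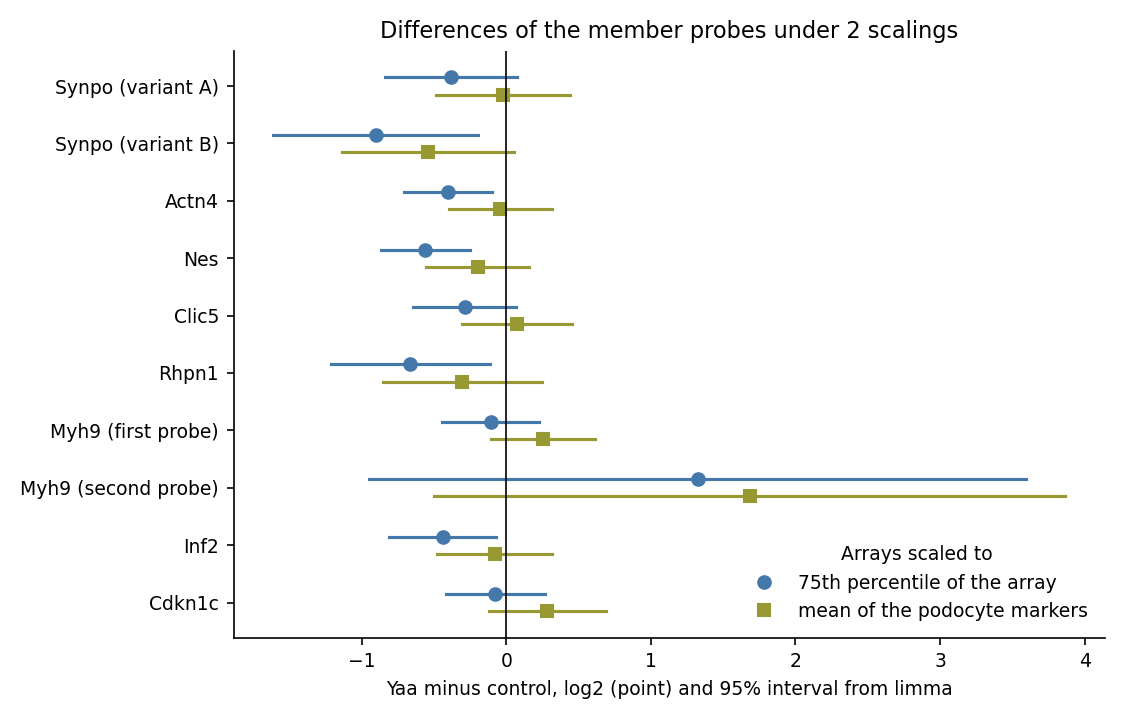
Difference between Yaa and control of each tested member probe (log2, point) with its 95% interval from limma, with arrays scaled to their 75th percentile (circles) or to the mean of 18 podocyte markers (squares). Under the podocyte scaling all 10 intervals include 0, and Myh9, Cdkn1c and Clic5 lie to the right of it.

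Most macrophage markers moved with the strain on the same arrays. Of 16 measured markers 13 rose, among them Adgre1 at 4.61 ± 0.20, C1qc at 6.36 ± 0.28 and Csf1r at 2.10 ± 0.13 (largest adjusted p of the 3, 0.000464). Over all genes 2.95% rose. The mean was lower in Yaa for 2 of the 16, Itgam at -0.53 ± 0.36 and Mrc1 at -0.32 ± 0.13. The Itgam probe used, the brightest of its gene, had a mean level of 6.99 in controls and 6.46 in Yaa. In controls that was far above the mean of the list, and whether this probe reads the Itgam RNA of macrophages was not tested. For Mrc1 every Yaa array was below every control array. The mean level of the 16 markers was -0.49 to -0.37 in the control pools and 2.72, 2.98 and 3.46 on Yaa replicates 1 to 3. Yaa replicate 3, the highest of these, was also the lowest array for 6 of the 10 tested member probes, and control replicate 3 was the highest for 6. These orders hold after scaling to the 75th percentile, which was 432.0 on Yaa replicate 3. Before scaling that array was the lowest for none of the 6 probes. Among these 6 it was then the highest for Actn4 (42680), the first Myh9 probe (69860) and Cdkn1c (139900). Of the other tested probes it was then the highest for Synpo variant A (10660), Clic5 (34190) and the second Myh9 probe (633.1). It was not the highest for Synpo variant B, Nes, Rhpn1 or Inf2. The same orders over all probes were not counted. The part of macrophage RNA in the levels of the members, Myh9 among them, was not tested.

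Markers of other glomerular cells did not pass. The mean was lower in Yaa for 10 of 14 endothelial and 10 of 11 mesangial and smooth muscle markers, against 70.3% of all genes. Of 14 endothelial markers 0 passed limma's test, 5 had an unadjusted p under 0.05, and the median was -0.26, with Flt1 at -0.53 ± 0.13 and Kdr at -0.69 ± 0.24, and with Plvap, the gene of a fenestral diaphragm protein, at 0.68 ± 0.17. Of 11 mesangial and smooth muscle markers 0 passed, 3 had an unadjusted p under 0.05, and the median was -0.32. In 42.9% of the endothelial and 36.4% of the mesangial genes all Yaa arrays were below all control arrays, against 62.5% (5 of 8) of the member genes, 44.4% of the podocyte markers, 66.7% (2 of 3) of the parietal epithelial markers and 20.7% of all genes. Among tubule markers the share was 50% of the 6 distal nephron and 0% of the 8 proximal tubule genes.

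**Figure D4:**
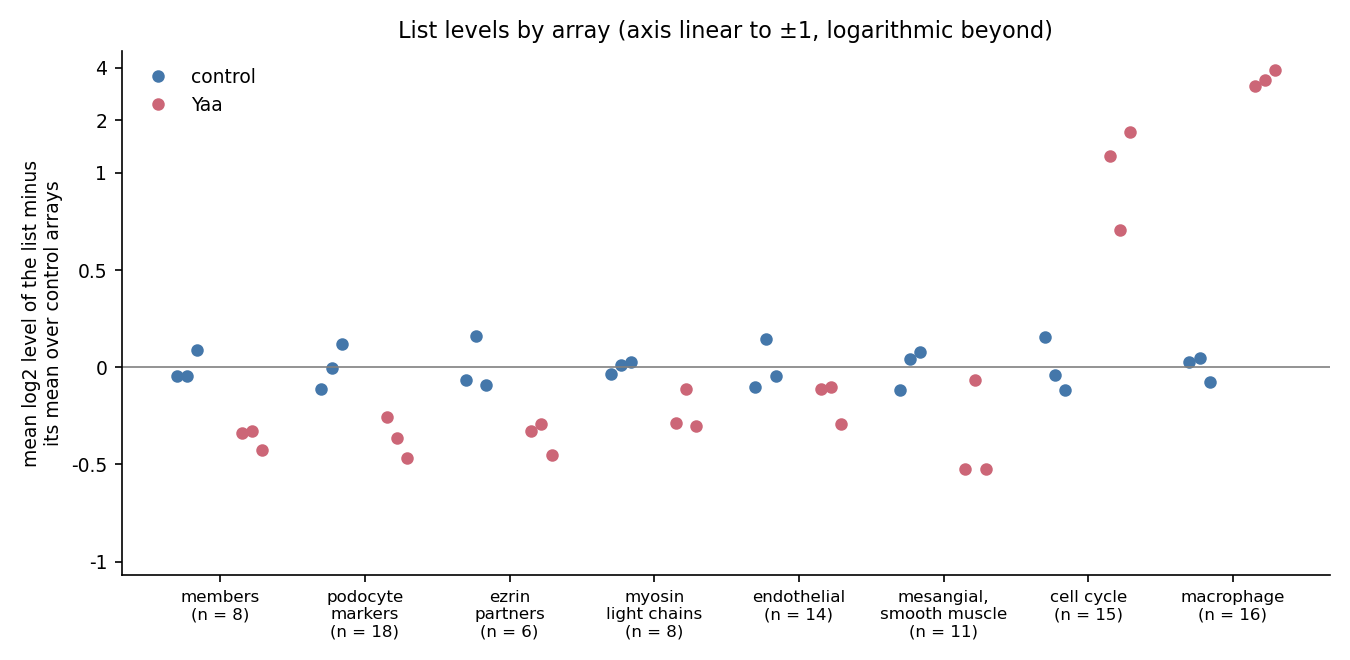
Mean log2 level of each gene list on each array, minus the list's mean over the control arrays (y axis linear to ±1 and logarithmic beyond, 1 point per array, replicates 1 to 3 from left to right, n = measured genes in the list). The 8 members and the 18 podocyte markers lie lower on all Yaa arrays than on all control arrays. So do the ezrin partners, the myosin light chains and regulators and, by a narrow margin, the endothelial markers. The mean of the 16 macrophage markers lies far higher.

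Among the genes whose levels followed the mean of the 8 members most closely across the 6 arrays, out of 13102 named genes compared, were Hoxb2 (Pearson r = 0.996), Dkk3 (0.995), Mphosph8 (0.994) and Tmem72 (0.993). With 6 arrays in 2 groups such values are common, and 673 genes had an r above 0.9, so that this is a description of these arrays only. Hoxb2, a homeobox transcription factor gene, read 1.73, 1.72 and 1.89 in the control pools and 1.42, 1.47 and 1.38 in the Yaa pools, a difference of -0.36 ± 0.12 (adjusted p = 0.192).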

How the data were processed

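Per the file headers, the authors' signal intensity values came from Agilent Feature Extraction 10.7.3.1 (the submitters' processing notes name 9.5.3), with background subtraction, detrending within each array and surrogate values for dim spots. They were deposited without normalization between arrays. All 6 arrays share 1 slide and scan, and the strains held different slide positions, so position and strain cannot be told apart.

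From each array 3671 control spots and 121 to 166 spots that the software called outliers were dropped. The log2 signal was taken relative to the 75th percentile, and spots of one probe were averaged. A probe entered the test if, in either group, every array had a share of 0.5 or more of its spots well above background, which left 28598 of 55681 probes. The test was limma 3.58.1 under R 4.3.3 (a linear model with eBayes moderation, two-sided, Benjamini-Hochberg over all kept probes, threshold 0.05). The code was also run on simulated data. The condition set there for calls covered only differences far larger than those of the members, so it does not show that theirs could be called. Gene lists used the brightest kept probe of each of 20716 genes, adjusted over genes. No saturated member probe was found, and the number of arrays limits the precision. Alternatives are in the closing section.

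Replicate numbers 1 to 3 occur in both groups. Deviations from the group means correlated at 0.140, 0.207 and 0.225 for same-numbered arrays, while pairs of unlike number gave -0.187 to 0.018, so a fit with the number as a block was made. No label states what the number marks.

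The members, gene lists and tests were chosen with earlier results of these data known. Every member probe is described. From the other lists up to 4 genes with the smallest p are named, with Nphs1, Wt1, Podxl, Actn1, Myh10 and Myh14, and relatives set beside a member were added after their values were seen. Msn, Cdk1, Ccnd1, Itgam and Mrc1 were likewise added, as genes that did not go with most of their list. Some genes that this rule names are not reported here.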

Additional observations from a re-analysis of the deposited data

How the results depend on the processing

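Under 16 alternatives 0 members passed, except for Nes (adjusted p = 0.0282) with an intensity trend and robust variances and for Synpo variant B without Yaa replicate 1, 1 lower probe in each case. With single arrays left out there were 0 to 1 lower member probes and 0 higher ones, and over all probes 440 to 838 higher and 38 to 448 lower (44, 38 and 49 without control replicates 1, 2 and 3, and 448, 135 and 95 without Yaa replicates 1, 2 and 3). Differences changed sign under podocyte scaling for Clic5 (0.074), the first Myh9 probe (0.25) and Cdkn1c (0.28), under quantile normalization for Cdkn1c (0.011), and for Myh9 as the mean of its probes (0.61), which includes the probe that is high on Yaa replicate 3. Over all probes podocyte scaling gave 1125 higher and 36 lower, no filter on dim probes 411 and 10, and the replicate block 124 lower, against 726 and 219. The block changed no call of a member, and the smallest adjusted p among them was then 0.111, for Rhpn1 (-0.66 ± 0.14). The differences between probes of Synpo and of Myh9 cannot change with a scaling of whole arrays, and without Yaa replicate 3 were -0.16 and 0.068. A block for slide or scan could not be fitted, since all arrays share both.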

Other observations

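Part of the stretch under the Actn4 probe is covered from both strands. A probe of Capn12, the gene of a calpain protease, lies at chr7:29678312-29678371 on mm9, on the plus strand, and shares 37 bases with the Actn4 probe as its reverse complement. It read -2.66, -2.89 and -2.89 in the control pools and -0.67, -3.10 and -3.96 in Yaa pools 1 to 3, well above background on all 6, with a difference of 0.23 ± 0.76 (limma, adjusted p = 0.884). Its spread among the Yaa arrays (SD 1.70) was far wider than that of Actn4 (SD 0.11), and Yaa replicate 1 was the high one. The Synpo probe on the cDNA clone has the same 60 bases as a probe named for an interval of chromosome 18, and no other member probe shared a run of 20 bases with another probe.

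Among the remaining cell types, Jchain, the joining chain of secreted immunoglobulin, was the 1 of 7 B cell and plasma cell markers that rose (1.84 ± 0.31, adjusted p = 0.0256), and Slc12a1, a transporter of the loop of Henle, the 1 of 6 distal nephron markers that fell (-0.99 ± 0.17, adjusted p = 0.0243). All 6 distal nephron markers had a lower mean in Yaa, with a median of -0.49. By limma's test 0 of 8 T cell markers passed (2 at an unadjusted p under 0.05, median 1.04), as did 0 of 7 neutrophil markers (0 unadjusted, median 0.06), 0 of 3 parietal epithelial markers (2 unadjusted, median -0.64) and 0 of 8 proximal tubule markers (0 unadjusted, median -0.44).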
